A study of Mus musculus with 275 samples.

Results

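The synaptic vesicle and SNARE genes are a set of 38 genes whose products store, dock, fuse and recycle the vesicles from which neurons release transmitter. The members were chosen by name for these roles and not by a measured value, but with earlier results of these data known. Of the 38 genes, 36 had a probe on the arrays, 58 probes in all out of 25697 in the table. The levels of Sv2c and Unc13a were not analysed here. Their transcript levels were measured in the striatum of mice bred selectively for High (responsive) or Low (non-responsive) catalepsy after haloperidol, a blocker of D2-like dopamine receptors. There were 41 High and 42 Low animals of the F2 selection, which started from an intercross of the strains C57BL/6J and DBA/2J. The HS4 selection, which started from a cross of the strains C57BL/6J, DBA/2J, BALB/cJ and LP/J, and the HS-CC selection, which started from the Collaborative Cross founders, each held 48 High and 48 Low animals. Each animal gave 1 array. The labels give 1 High and 1 Low line per background, so the response to selection and chance differences between lines cannot be told apart. No drug was listed for the animals whose RNA was measured, and their ages are not given in the sources used here.

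Transmitter release rests on a small machine. SNARE proteins of the vesicle (synaptobrevins, encoded by the Vamp genes) and of the plasma membrane (syntaxins and SNAP-25) zip together and pull the membranes into contact. Some synaptotagmins sense calcium and trigger fusion, complexins clamp and release the zipped complex, and the ATPase NSF with its SNAP adaptors takes it apart again. Active zone proteins such as the Rims, Munc13s, Bassoon and Piccolo prepare vesicles for release. Synapsins tether the reserve pool, and dynamin, amphiphysin and AP180 retrieve the membrane. In the striatum most cells are inhibitory spiny neurons, whereas many of the terminals belong to neurons whose cell bodies, and most of whose RNA, lie in cortex, thalamus and midbrain.

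The question put to these genes was whether their levels, or the way their levels move together across animals, differed between the High and Low lines of each genetic background. Values are normalized intensities on a log2 scale, and no level was compared between selections or between probes. Some arrays stood apart. The median share of probes above background was 54.7%, 55.2% and 54.1% for the F2, HS4 and HS-CC arrays, but the share was under 50% on 15 F2 arrays (9 High and 6 Low), 14 HS4 arrays (6 High and 8 Low) and 11 HS-CC arrays (6 High and 5 Low). In HS4 it was as low as 7.43%. These are called arrays of low detection below. They were kept, and results that rest on them are given with and without them. The sex in the HS4 labels matched the Y-linked gene Eif2s3y on 41 of 96 arrays, so labels of HS4 arrays, those of the line included, may be mixed up. Every High minus Low value and every correlation in HS4, for which line means were subtracted or lines taken apart, holds only for the lines as labelled. Animals of every selection came from breeding families, which the labels give for HS4 and not for F2 or HS-CC, and which were not modelled. All p-values, that of Unc13c in F2 included, treat siblings as independent. Spiny neuron markers were expressed in every selection (11 of the 11 genes with a probe), and so were 5 of 5 markers of cortical glutamatergic neurons.

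The arrays of low detection weighed on the members in HS4 and much less elsewhere. The mean over these arrays lay below that of the other arrays for 21 of 33 genes in HS4 and was lower by over 1 log2 unit for 5 of them, Syt1 (−2.30), Cplx2 (−2.07), Syn2 (−1.75), Nsf (−1.41) and Sv2a (−1.28). It was higher by 0.73 for Stx1a and by 0.60 for Syn1. In F2 the same differences ran between −0.27 and 0.21, and in HS-CC between −0.34 and 0.23. The arrays were picked for few probes above background, and the share of all expressed probes that lay lower on them was not computed. The counts therefore do not set the members apart from other genes. Syt1 had an empty gap in HS4 between 11.24 and 12.23. The 10 animals below it (4 High and 6 Low) all came from the 14 arrays of low detection, and the other 86 animals (44 High and 42 Low) lay above it.

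Promoter sequences are shown for 4 members that the results turn on, Stx1a, Syn1 and Syp, which moved together across animals, and Unc13c, which moved against them. RefSeq promoters (GRCm38.p6, 250 bases before to 50 bases after the start, read 5′ to 3′ along the gene) matched 29 of the 38 members, Sv2c and Unc13a among them, with 37 promoters. Capitals mark matches, on either strand, to TGACGTCA, the cyclic AMP response element, to the core of the NRF1 binding site (GCGCA and GCGC with any base between them), and to GGGCGG, the GC box. None of these motifs overlaps another in the 4 windows.
Stx1a (chr5:135023232-135023531, plus strand): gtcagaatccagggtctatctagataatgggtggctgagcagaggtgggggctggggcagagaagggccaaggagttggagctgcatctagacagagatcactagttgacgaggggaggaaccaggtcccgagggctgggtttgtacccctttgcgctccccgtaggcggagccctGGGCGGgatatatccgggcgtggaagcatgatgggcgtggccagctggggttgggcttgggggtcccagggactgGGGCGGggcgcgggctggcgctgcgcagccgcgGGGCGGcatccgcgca
Syn1 (chrX:20920869-20921168, minus strand): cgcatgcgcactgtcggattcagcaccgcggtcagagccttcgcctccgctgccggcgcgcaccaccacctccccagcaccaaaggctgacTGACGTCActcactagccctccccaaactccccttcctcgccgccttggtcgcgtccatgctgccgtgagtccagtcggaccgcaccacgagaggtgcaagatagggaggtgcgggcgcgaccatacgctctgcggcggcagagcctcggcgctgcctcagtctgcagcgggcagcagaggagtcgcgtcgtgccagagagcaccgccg
Syp (chrX:7638330-7638629, plus strand): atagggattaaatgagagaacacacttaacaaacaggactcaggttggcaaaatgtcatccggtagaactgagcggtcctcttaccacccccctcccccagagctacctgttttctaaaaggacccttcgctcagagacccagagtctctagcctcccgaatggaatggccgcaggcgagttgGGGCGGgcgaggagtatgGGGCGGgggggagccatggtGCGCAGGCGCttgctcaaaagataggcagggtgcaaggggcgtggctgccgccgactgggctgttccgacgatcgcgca
Unc13c (chr9:73968988-73969287, minus strand): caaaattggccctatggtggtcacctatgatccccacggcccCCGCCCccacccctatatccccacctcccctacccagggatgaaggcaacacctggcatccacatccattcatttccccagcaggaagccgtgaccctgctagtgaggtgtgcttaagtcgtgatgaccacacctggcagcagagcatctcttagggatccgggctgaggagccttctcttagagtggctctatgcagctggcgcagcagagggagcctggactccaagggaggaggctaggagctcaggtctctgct
The Stx1a window held 3 GC boxes, the Syp window 2 GC boxes and 1 NRF1 core, the Syn1 window 1 cyclic AMP response element and the Unc13c window 1 GC box, read on the opposite strand. Over all members, GGGCGG was found in 23 of 37 promoters (62.2%), against 35.7% of 32851 promoters of all genes. The NRF1 core was found in 6 of 37 (16.2%), against 4.6%, and TGACGTCA in 2 of 37 (5.41%, Napa and Syn1), against 1.79%. These matches describe the letters only.

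Most members were well expressed. Background was set on each array from 1340 probes of olfactory, vomeronasal and taste receptors, which the striatum should lack. A probe counted as expressed when it lay above the 95th percentile of these in at least 25% of a selection's animals. By this rule 50 probes of 33 genes were expressed in every selection. The members below it were Snap25, Bsn (Bassoon) and Syt7, together with 1 probe of Rims1 and 2 probes of Amph beside their expressed ones. Snap25 encodes a plasma membrane SNARE that is abundant in neurons. Its only probe was below the rule in every selection. It ran between 8.88, 8.98 and 9.30 (lowest, median and highest) in F2 High animals and between 8.87, 8.97 and 9.06 in F2 Low animals, and exceeded background on 9 High and 5 Low arrays. In HS4 it ran between 8.97, 9.09 and 11.02 in High and 9, 9.07 and 9.77 in Low animals, and exceeded background on 0 arrays. The high values were those of arrays of low detection, without which the highest were 9.18 in High and 9.14 in Low animals. In HS-CC it ran between 9.11, 9.2 and 10.24 in High (highest 9.32 without the arrays of low detection) and 9.08, 9.21 and 9.44 in Low animals, and exceeded background on 12 High and 10 Low arrays. A difference in Snap25 was not detectable with this probe. Synpr, Syn3, probes of Vamp1 and a probe of Syngr1 were expressed but dim.

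**Figure D1:**
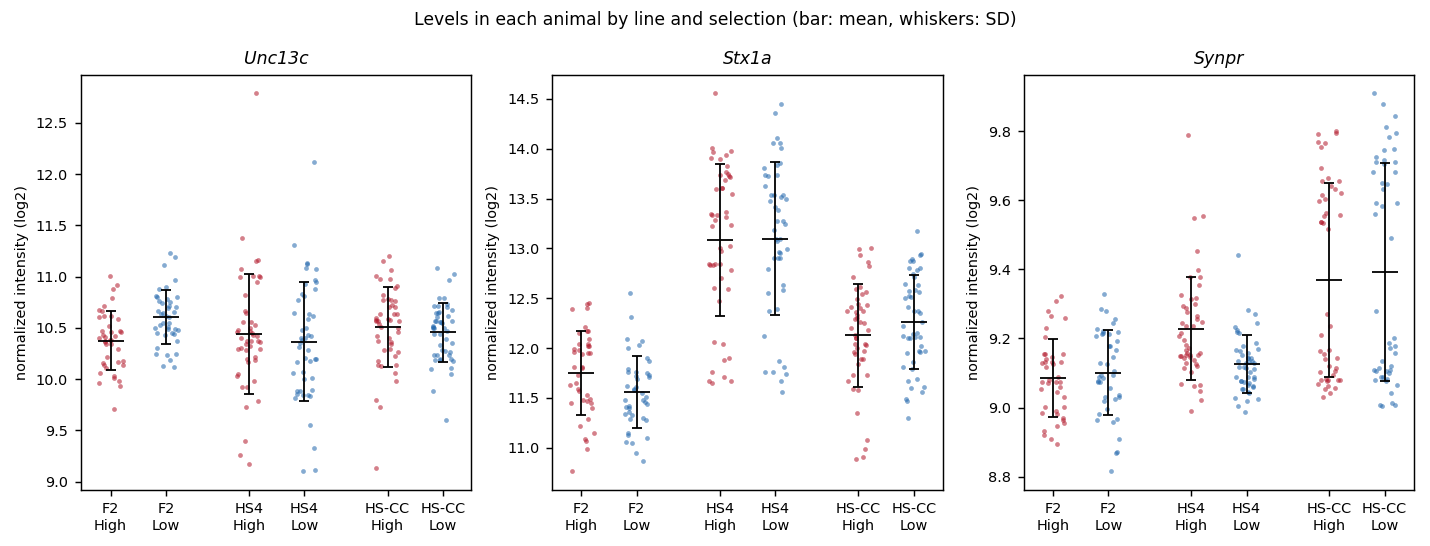
Normalized intensity (log2) of Unc13c, Stx1a and Synpr in each animal of the High and Low lines of F2, HS4 and HS-CC, with the mean (bar) and SD (whiskers). Unc13c lay lower in F2 High (mean 10.38) than in F2 Low (10.60) animals with overlapping ranges, and Synpr in HS-CC fell into a lower and an upper band in both lines.

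Of the 50 probes, 1 differed between the lines in F2, and 0 did in HS4 or HS-CC, at a false discovery rate of 0.1. The probe was that of Unc13c. It stands against 0.921% of the 15303 expressed probes called in F2 (0.569% lower and 0.353% higher in High). Of 15218 probes in HS4 0.046% were called, and of 15121 in HS-CC 3.41% (2.22% lower and 1.19% higher in High). At an unadjusted p under 0.05, 6 member probes passed in F2 (12%, against 8.76% of all probes), 3 in HS4 (6%, against 3.22%) and 4 in HS-CC (8%, against 12.3%). The median difference over the member probes, High minus Low, was 0.0171, 0.0136 and −0.00491 in F2, HS4 and HS-CC, against −0.000725, −0.00915 and −0.00325 over all expressed probes. Of the 50 probes, 29, 30 and 25 were higher in the mean of the High line in F2, HS4 and HS-CC, where 49%, 41.6% and 46.2% of all expressed probes were. As bulk striatum was measured, fewer cells of a type and less RNA per cell cannot be told apart in any of these values.

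The intervals show how large a difference could have been missed. Taking the brightest probe of each gene, the 95% interval of High minus Low lay within ±0.2 log2 units for 29, 12 and 22 of the 33 genes in F2, HS4 and HS-CC. It lay within ±0.5 for 33, 30 and 33 genes. In HS4 the widest intervals were those of Cplx2 (−0.15 to 0.74) and Syt1 (−0.08 to 0.71). With the arrays of low detection left out, Cplx2 differed by 0.05 (SE 0.14) and Syt1 by 0.19 (SE 0.08, adjusted p = 0.545, limma).

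**Figure D2:**
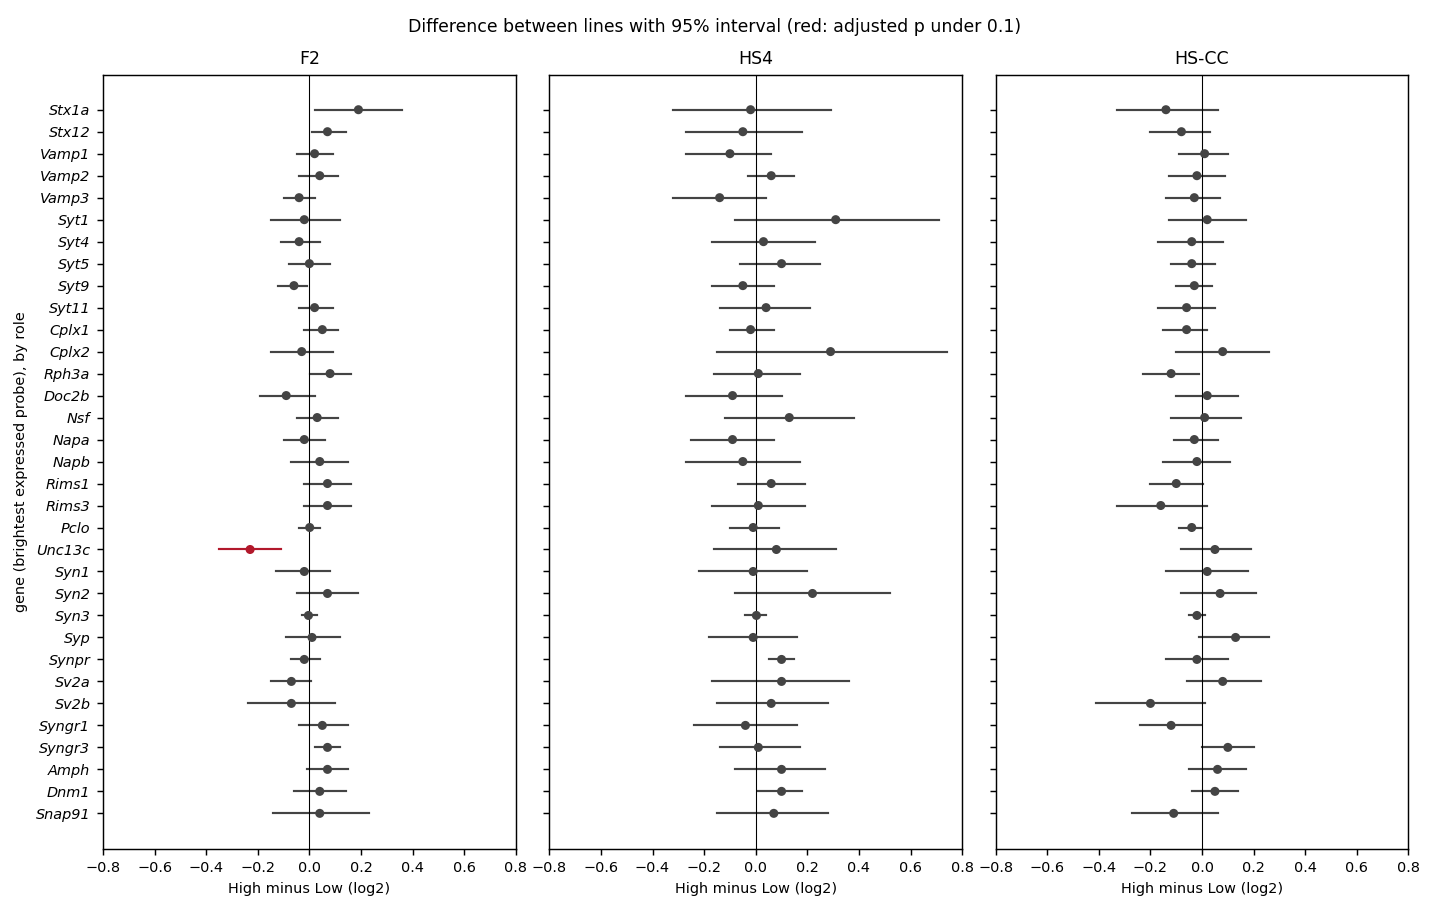
High minus Low (log2) of the brightest expressed probe of each of 33 genes, ordered by role, with 95% intervals, in F2, HS4 and HS-CC. Unc13c in F2 (−0.23, red) was the only gene with an adjusted p under 0.1.

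Unc13c, which encodes Munc13-3, a priming factor of the active zone known best from the cerebellum, was lower in the F2 High line. Its lowest, median and highest values were 9.70, 10.38 and 11.01 in F2 High animals and 10.12, 10.61 and 11.23 in F2 Low animals. The lines overlapped over most of their range. There were 8 High animals below the lowest Low animal and 3 Low animals above the highest High animal. The means were 10.38 ± 0.29 in High and 10.60 ± 0.26 in Low animals (SD, n = 41 and 42), a difference of −0.23 (SE 0.06, 95% interval −0.35 to −0.11, adjusted p = 0.0512, limma), which corresponds to a ratio of 0.853. Leaving out the arrays of low detection gave −0.23 (adjusted p = 0.0684), and with the means of cortical, choroid plexus and oligodendrocyte markers as covariates it was −0.20 (adjusted p = 0.0354). It did not pass a false discovery rate of 0.05. The means of the cortical markers were 10.08 in High and 10.02 in Low animals of F2, and those of the spiny neuron markers 12.11 and 12.17. Spiny neuron markers were not among the covariates, and their part in the difference was not tested. The part of the cortical markers was not tested beyond the fit with covariates. On chromosome 9 the expressed neighbours of Unc13c were Rsl24d1 and Wdr72. They differed by 0.02 and −0.03 (the probes of Rsl24d1) and by −0.00049 (Wdr72), and neither was called.

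In the other selections Unc13c was not called. Its lowest, median and highest values were 9.17, 10.39 and 12.79 in HS4 High animals and 9.11, 10.37 and 12.12 in HS4 Low animals. In HS-CC they were 9.14, 10.57 and 11.20 in High and 9.60, 10.50 and 11.09 in Low animals. The lines overlapped almost fully in both selections. High minus Low was 0.08 (SE 0.12, adjusted p = 0.989) in HS4 and 0.05 (SE 0.07, adjusted p = 0.812) in HS-CC. The difference between the selections was tested in a fit of all groups. It was −0.31 (SE 0.12, p = 0.0109, adjusted p = 0.963, limma) for F2 minus HS4 and −0.30 (SE 0.12, p = 0.0157, adjusted p = 0.479) for F2 minus HS-CC, so neither passed over the 13994 probes tested. With arrays of low detection left out, the F2 minus HS-CC difference was −0.31 (SE 0.10, adjusted p = 0.0957) and passed, in a fit that called 3.45% of all probes. No other member was called in these contrasts under any setting. Over all arrays 0 of 50 member probes passed in each, against 1.04% of all probes for F2 minus HS-CC, 0.0429% for F2 minus HS4 and 0.829% for HS-CC minus HS4, and the unadjusted p was under 0.05 for 6 of the 50 in F2 minus HS-CC (6.64% of all probes), 1 in F2 minus HS4 (4.59%) and 2 in HS-CC minus HS4 (7.4%).

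The other active zone genes were not called. Rims1 and Rims3, which encode proteins of the Rim family, differed by 0.07 each in F2. They differed by 0.06 and 0.01 in HS4 animals, and by −0.10 and −0.16 in HS-CC. Pclo (Piccolo, a large scaffold) lay between −0.05 and 0.04 over its probes, the lowest of them in HS-CC (SE 0.02, adjusted p = 0.184).

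Among the plasma membrane SNAREs, Stx1a (syntaxin 1A, the partner of SNAP-25 at the presynaptic membrane) had the largest positive difference of any member in F2, without passing the test. Its lowest, median and highest values were 10.77, 11.81 and 12.45 in F2 High animals and 10.87, 11.53 and 12.55 in F2 Low animals. The ranges were nearly the same, and the difference of the means was 0.19 (SE 0.09, adjusted p = 0.466). With the marker means as covariates it was 0.13 (adjusted p = 0.0333). In HS4 Stx1a ran between 11.65, 13.26 and 14.56 in High and 11.56, 13.21 and 14.45 in Low animals, and in HS-CC between 10.89, 12.19 and 13 in High and 11.30, 12.24 and 13.18 in Low animals. The differences there were −0.02 (SE 0.15) and −0.14 (SE 0.10), within the spread of the animals. Stx12 (syntaxin 12, an endosomal SNARE) differed by 0.07, −0.05 and −0.08 in F2, HS4 and HS-CC and was not called in any.

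Among the vesicle SNAREs, Vamp2 (synaptobrevin 2, the main vesicle SNARE of forebrain synapses) was bright and close between the lines. Its lowest, median and highest values were 13.08, 13.31 and 13.76 in F2 High and 12.93, 13.26 and 13.61 in F2 Low animals. In HS4 they were 14.17, 14.79 and 15.58 in High and 14.38, 14.73 and 15.37 in Low animals, and in HS-CC 13.34, 13.80 and 14.55 in High and 13.31, 13.74 and 14.74 in Low animals. The lines overlapped nearly in full. The differences were 0.04 (SE 0.04), 0.06 (SE 0.05) and −0.02 (SE 0.06). Vamp1 and Vamp3 (cellubrevin, found in many cell types) gave differences between −0.14 and 0.08 over their probes, none of them called.

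Of the synaptotagmins, Syt1, the calcium sensor of fast release, had lowest, median and highest values of 12.36, 13.25 and 14.06 in F2 High animals and 12.79, 13.36 and 14.19 in F2 Low animals. In HS-CC they were 12.66, 13.49 and 14.17 in High and 12.49, 13.59 and 14.10 in Low animals. The differences of the means were −0.02 (SE 0.07) and 0.02 (SE 0.08). In HS4, where the low animals described above belong to both lines, the values were 9.90, 13.49 and 14.44 in High and 9.33, 13.27 and 13.91 in Low animals, a difference of 0.31 (SE 0.20, adjusted p = 0.989). The other synaptotagmins, Syt4, Syt5, Syt9 and Syt11, lay between −0.06 and 0.10 over the selections, with 0 of their probes called. Cplx1 and Cplx2, the complexins, Rph3a (rabphilin, an effector of Rab3) and Doc2b (a high-affinity calcium sensor) were not called either. Rph3a reached an unadjusted p under 0.05 with opposite signs, 0.08 (adjusted p = 0.542) in F2 and −0.12 (adjusted p = 0.311) in HS-CC.

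The genes of SNARE disassembly (Nsf, Napa and Napb) differed between −0.09 and 0.13, and the synapsins between −0.02 and 0.22, with 0 probes called. Among the vesicle membrane proteins, Synpr (synaptoporin, a relative of synaptophysin) was the nearest to the threshold in HS4 and is described because of its value. Its lowest, median and highest values were 8.99, 9.19 and 9.79 in HS4 High and 8.99, 9.12 and 9.44 in HS4 Low animals. The probe was dim and exceeded background on 21 High and 6 Low arrays, so it passed the filter on low values only through the High line and its calls are no support for a difference. The difference of 0.10 (SE 0.03) had an adjusted p of 0.144. On the 82 arrays not of low detection it was 0.09 (SE 0.02, adjusted p = 0.00816), in a fit that called 0.716% of all probes. Syp (synaptophysin, a major vesicle protein) differed by 0.01, −0.01 and 0.13 (SE 0.07, adjusted p = 0.48) in F2, HS4 and HS-CC. Sv2a, Sv2b, Syngr1 and Syngr3 lay between −0.20 and 0.16. Of the endocytosis genes Amph, Dnm1 and Snap91 (amphiphysin, dynamin 1 and AP180), all 5 probes were positive in F2 and in HS4 and 3 of 5 in HS-CC, and none was called.

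Other genes of the vesicle cycle were tested in the same fits. Of a list of 97 such genes outside the 38, 74 were tested in F2 (111 probes), 71 in HS4 (106 probes) and 72 in HS-CC (108 probes), and 1, 0 and 2 probes were called (0.901%, 0% and 1.85%, against 0.921%, 0.046% and 3.41% of all expressed probes). Ap2s1, a subunit of the clathrin adaptor AP2, rose in F2 High by 0.13 (means 11.97 in High and 11.84 in Low, SE 0.04, adjusted p = 0.0719) on 1 of 3 probes, while the other probes gave 0.06 and 0.04. Ap2m1, another subunit of AP2, rose in HS-CC High by 0.28 (means 12.31 in High and 12.04 in Low, SE 0.07, adjusted p = 0.00573). Stxbp2 (Munc18-2, which binds syntaxins outside neurons) fell by 0.22 in HS-CC High (means 9.94 in High and 10.15 in Low, SE 0.05, adjusted p = 0.00983).

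The members varied more between animals of a line than most transcripts. The SD within lines had a median of 0.185 over the member probes in F2, against 0.122 over all expressed probes, 0.428 against 0.286 in HS4 and 0.276 against 0.162 in HS-CC. It exceeded the median of all probes for 43, 38 and 42 of the 50 probes. When arrays of low detection were left out the medians were 0.175 against 0.108, 0.264 against 0.13 and 0.249 against 0.123, and 44, 42 and 44 probes lay above. These SDs are described without a test. The members were not matched for brightness to the other probes, and the part of brightness in their spread was not tested.

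The genes did not vary alone. Pearson correlations were computed across the animals of a selection after subtraction of the line means, with 1 probe for each of 33 genes and 528 pairs. The median correlation was 0.0656, 0.0913 and 0.138 in F2, HS4 and HS-CC, against 0.0108, 0.0383 and 0.0153 over all pairs of expressed probes. Pairs above 0.5 made up 9.28%, 17.4% and 9.09% of the member pairs, against 2.6%, 11% and 3.02% of all pairs. Without the arrays of low detection the share of all pairs above 0.5 in HS4 was 2.39%, and that of the member pairs was 16.5%. The medians of the members were then 0.077, 0.141 and 0.142.

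**Figure D3:**
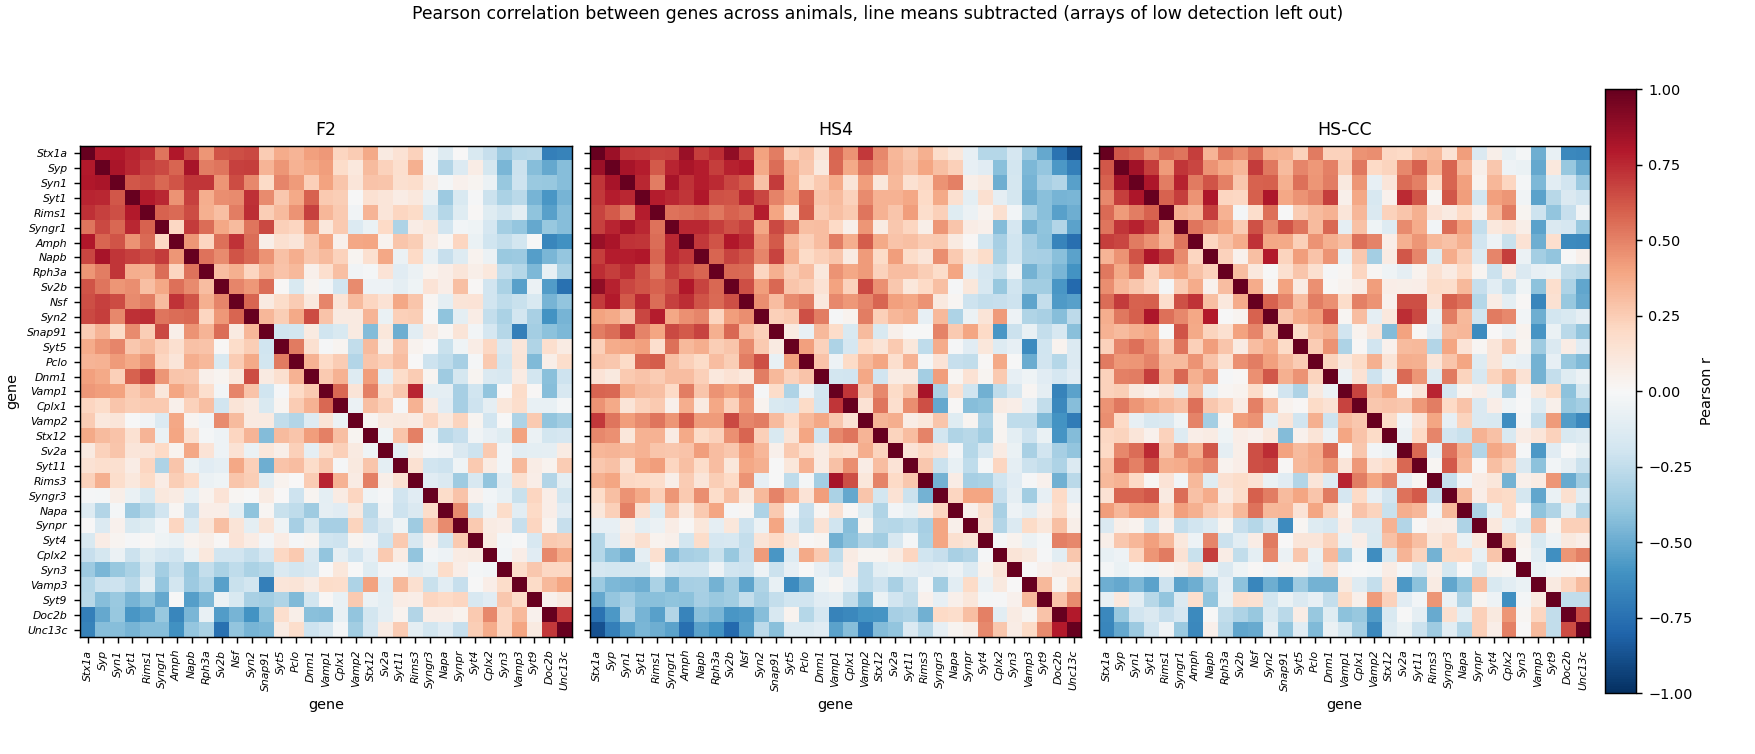
Pearson correlation of each pair of 33 genes (both axes) across the animals of F2, HS4 and HS-CC after subtraction of line means, without the arrays of low detection, on a colour scale of −1 to 1. Genes are ordered by their mean correlation with the cortical glutamatergic markers over selections, so where a gene lies follows from that order and not from clustering. Stx1a, Syp, Syn1 and Syt1 lie in a block of positive correlations at the upper left, and Doc2b and Unc13c, in the last rows, were negative with most genes of that block and positive with each other.

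A common block of genes recurred in the 3 backgrounds. With all arrays, 16 pairs exceeded 0.5 in every selection and 8 pairs lay under −0.3 in every selection. Without the arrays of low detection these were 30 and 21 pairs, of which 13 and 6 were shared with the first count. How many of all pairs of expressed probes did so in every selection was not computed. The counts therefore describe the members and do not set them apart from other genes. Stx1a with Syn1 gave 0.795, 0.625 and 0.548 in F2, HS4 and HS-CC, and Stx1a with Syp gave 0.763, 0.565 and 0.573. Both pairs join the plasma membrane SNARE with proteins of the vesicle surface. The values of Syn1 here and below rest on its brighter probe. That probe correlated with the other probe of Syn1 at only 0.274, 0.517 and 0.333. Syt1 with Syn2 gave 0.758, 0.876 and 0.699, Nsf with Amph 0.727, 0.774 and 0.705, and Syngr1 with Snap91 0.659, 0.628 and 0.677. Vamp1 went with another set. It correlated with Rims3 at 0.694, 0.79 and 0.733 and with Cplx1 at 0.504, 0.631 and 0.612.

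Unc13c and Doc2b ran against this block. Of the 8 pairs under −0.3 in every selection, 6 included Unc13c or Doc2b, and of the 21 without the arrays of low detection, 16 did. Stx1a with Unc13c gave −0.594, −0.624 and −0.493 in F2, HS4 and HS-CC, and −0.668, −0.874 and −0.655 without those arrays. Unc13c with Sv2b gave −0.687, −0.746 and −0.419. Unc13c and Doc2b went together, with 0.615, 0.054 and 0.704 over all arrays and 0.708, 0.793 and 0.649 without the arrays of low detection. The other pairs under −0.3 with all arrays were Vamp1 with Cplx2 and Cplx2 with Rims3. Negative pairs past 0.5 in size made up 1.7%, 5.49% and 1.52% of the member pairs in F2, HS4 and HS-CC. Among all pairs of expressed probes they were more common, at 2.23%, 7.15% and 2.68%. Without the arrays of low detection they made up 2.65%, 5.11% and 3.79% of the member pairs, against 2.44%, 1.85% and 0.405% of all pairs.

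**Figure D4:**
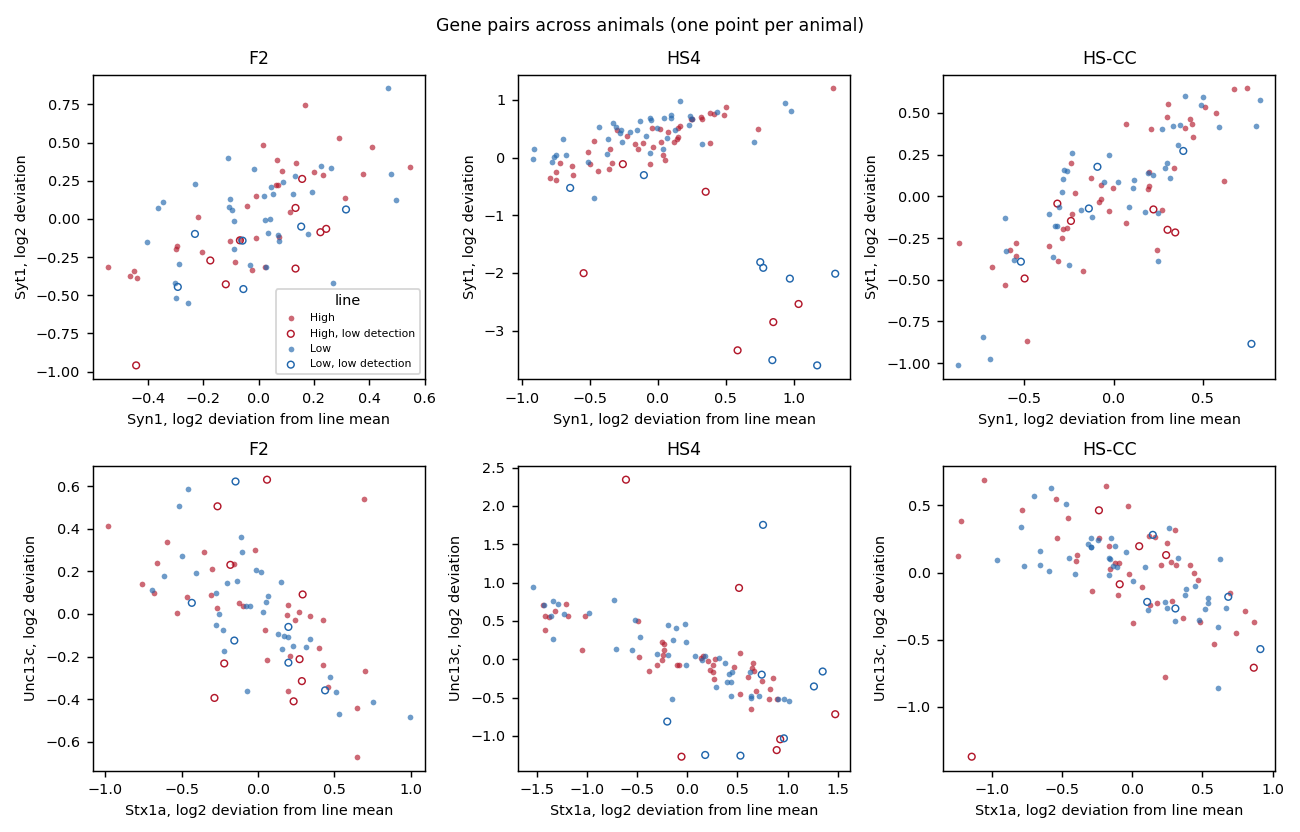
Deviation from the line mean (log2) of Syt1 against Syn1 (top) and of Unc13c against Stx1a (bottom) in each animal of F2, HS4 and HS-CC, High and Low lines, with open circles for arrays of low detection. In HS4 most of the open circles lie well below the other animals for Syt1, and Syt1 with Syn1 gave −0.274 with all arrays and 0.755 without them.

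Part of the HS4 pattern turned on those arrays. Syt1 with Syn1 correlated at 0.614, −0.274 and 0.704 in F2, HS4 and HS-CC over all arrays, and at 0.623, 0.755 and 0.812 without the arrays of low detection. Stx1a with Nsf in HS4 gave −0.147 with all arrays and 0.701 without them. Across the 528 pairs, the correlation coefficients of F2 and HS4 were themselves correlated at 0.422 with all arrays and 0.777 without those of low detection, those of F2 and HS-CC at 0.535 and 0.631, and those of HS4 and HS-CC at 0.515 and 0.7. Pairs share genes and are no independent replicates, and these values carry no test.

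For 8 pairs of genes whose products act together or are paralogs, the correlations were tested (24 relations over the selections, permutation tests, two-sided). The other 6 pairs of the list needed Snap25, Bsn or Unc13a. Syn1 with Syp was the closest pair, with r of 0.792, 0.707 and 0.839 in F2, HS4 and HS-CC (Spearman 0.784, 0.773 and 0.838). Each had a permutation p of 1e-05, the smallest the resamples can give, and an adjusted p of 2.4e-05 for r and 3e-05 for Spearman. Without the 2 animals farthest from the median of Syn1, r was 0.781, 0.686 and 0.829. All of these values rest on the brighter probe of Syn1. Stx1a with Vamp2, which form the same SNARE complex, gave 0.226 in F2 (Spearman 0.248, permutation p = 0.0395 and 0.0238, adjusted p = 0.0593 and 0.0358, 0.186 without the 2 farthest animals). It gave 0.686 in HS4 (Spearman 0.668, permutation p = 1e-05 for both, 0.668 without the 2 farthest) and 0.43 in HS-CC (Spearman 0.451, permutation p = 1e-05 and 2e-05, 0.447 without the 2 farthest).

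Other pairs were looser. Nsf with Napb, the ATPase and the brain form of its adaptor, gave 0.584, 0.676 and 0.23 (Spearman 0.542, 0.697 and 0.341, adjusted permutation p for r of 2.4e-05, 2.4e-05 and 0.0369), and 0.563, 0.596 and 0.222 without the 2 farthest animals. Nsf with Napa gave −0.155, −0.386 and 0.477 (Spearman −0.131, −0.189 and 0.505, adjusted permutation p for r of 0.203, 0.000982 and 2.4e-05), and −0.188, −0.433 and 0.445 without the 2 farthest animals. The HS4 value for Napa was 0.0184 without the arrays of low detection, and it was 0.79 with another probe of Napa, so the sign is not settled there. Sv2a with Syp gave 0.15, 0.312 and 0.475 (Spearman 0.152, 0.295 and 0.508, adjusted permutation p for r of 0.208, 0.00567 and 2.4e-05), and 0.0834, 0.197 and 0.499 without the 2 farthest animals. Amph with Dnm1 gave 0.217, 0.048 and 0.421 (Spearman 0.234, 0.28 and 0.42, adjusted permutation p for r of 0.0699, 0.676 and 2.4e-05), with 0.406 in HS4 without the 2 farthest animals and 0.312 without the arrays of low detection. Vamp1 with Vamp2 gave 0.124, 0.347 and 0.313 (Spearman 0.164, 0.302 and 0.331, adjusted permutation p for r of 0.301, 0.0011 and 0.00397). The complexins Cplx1 and Cplx2 were not called in any selection, with 0.00994, −0.174 and −0.0362 (Spearman −0.0178, −0.182 and −0.0465, adjusted permutation p for r of 0.929, 0.12 and 0.757).

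The study asked whether selection changed how genes are coexpressed, and reported modules of transcripts with changed connectivity in each background. Differences in the correlation of single pairs are another measure and do not answer the study's question. For the 8 pairs, the correlation in the High line minus that in the Low line was tested by permuting line labels, and 0 of 24 relations passed at an adjusted p of 0.1. The pair nearest to it was Amph with Dnm1 in HS4, with −0.231 in High and 0.588 in Low animals (difference −0.819, permutation p = 0.00535, adjusted p = 0.128). Without the arrays of low detection these were 0.207 in High and 0.4 in Low animals (difference −0.192, adjusted permutation p = 0.94). The median correlation over the 528 pairs was 0.0813 in High and 0.0607 in Low animals of F2, 0.136 in High and 0.0465 in Low animals of HS4, and 0.157 in High and 0.139 in Low animals of HS-CC. With the arrays of low detection left out it was 0.0948 in High and 0.0729 in Low animals of F2, 0.159 in High and 0.111 in Low animals of HS4, and 0.127 in High and 0.172 in Low animals of HS-CC, where the order turned. The medians carry no test.

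Cortex lies beside the striatum, and the mean of 5 cortical glutamatergic markers (Slc17a7, Tbr1, Neurod2, Neurod6 and Fezf2) was set against each member. Of 33 genes, 23 correlated with it in F2 (18 positive and 5 negative), 20 in HS4 (17 and 3) and 23 in HS-CC (21 and 2), at an adjusted permutation p under 0.1 over 99 relations. These are 69.7%, 60.6% and 69.7% of the genes, and at the size of the weakest r that passed (0.237, 0.195 and 0.202) 23.7%, 26.1% and 28.2% of all expressed probes reached it, the markers' own probes left out. Those with a positive r were 10.2%, 15.6% and 13.8% of all expressed probes. Those genes positive in every selection were Amph, Napb, Rims1, Rph3a, Snap91, Stx1a, Sv2b, Syn1, Syngr1 and Syp, and those negative in every selection were Doc2b and Unc13c. The share of all expressed probes that would pass in every selection was not computed. On the arrays that remained without those of low detection, 23, 29 and 25 genes passed (69.7%, 87.9% and 75.8%), where 24.3%, 48% and 39.2% of all expressed probes reached the weakest r that passed. The marker mean itself was 10.08 in High and 10.02 in Low animals of F2, 10.25 in High and 10.21 in Low animals of HS4, and 10.40 in High and 10.45 in Low animals of HS-CC.

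**Figure D5:**
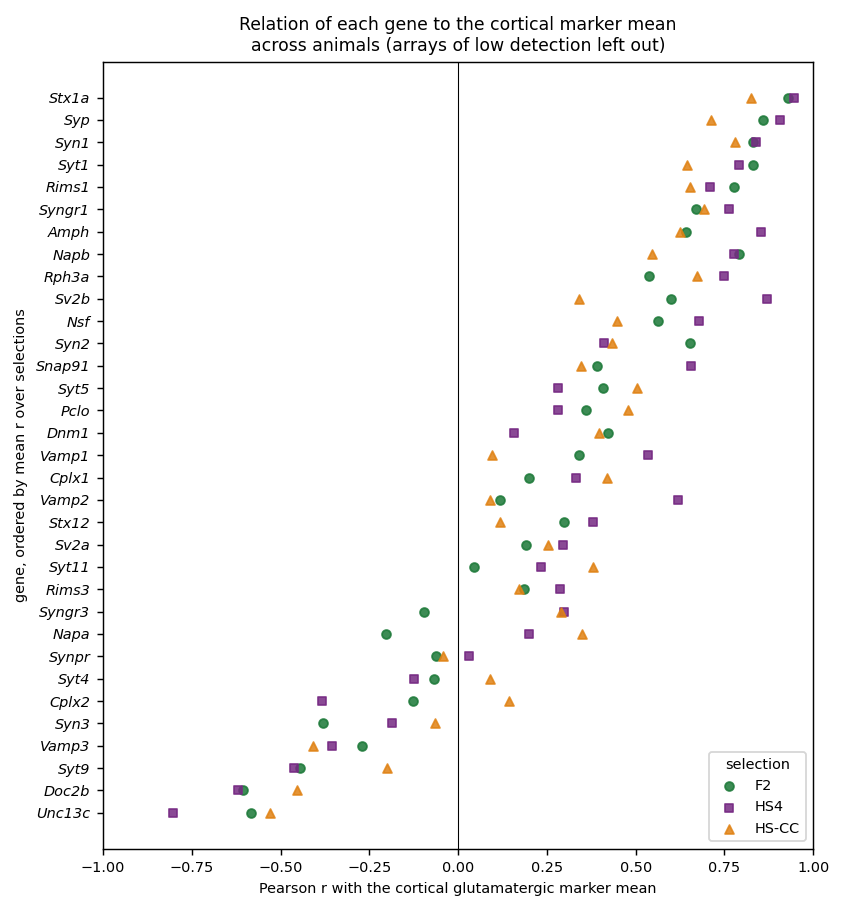
Pearson correlation of each of 33 genes with the mean of the cortical glutamatergic markers across animals of F2, HS4 and HS-CC after subtraction of line means, without the arrays of low detection, ordered by the mean over selections. Stx1a is at the top in all 3 selections (0.93, 0.945 and 0.825) and Unc13c at the bottom (−0.583, −0.804 and −0.53).

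The same genes that opposed each other above stood at the ends of this order. Stx1a correlated with the marker mean at 0.928 in F2 (Spearman 0.93), 0.853 in HS4 (0.811) and 0.804 in HS-CC (0.804), and at 0.921, 0.842 and 0.774 without the 2 animals farthest from the median of the markers. Unc13c correlated with it at −0.549 (Spearman −0.571), −0.637 (−0.737) and −0.462 (−0.537), and at −0.56, −0.62 and −0.443 without the 2 farthest. All 6 values of r, and of Spearman, had a permutation p of 1e-05, the smallest possible, and an adjusted p of 2.83e-05 for r and 2.36e-05 for Spearman. Given the cortical marker mean, the median partial correlation among the members was 0.0384, 0.0257 and 0.0671 in F2, HS4 and HS-CC, against 0.0656, 0.0913 and 0.138 without that adjustment. These medians run over pairs of both signs. Of the pairs named above, Stx1a with Syn1 gave partial correlations of 0.141, 0.0536 and −0.168, Stx1a with Syp −0.0453, −0.209 and 0.0538, and Stx1a with Unc13c −0.273, −0.202 and −0.229. Syn1 with Syp gave 0.336, 0.377 and 0.672. These 4 pairs were closer to 0 than without the adjustment in every selection. The same held, by smaller amounts, for Syt1 with Syn2, Syngr1 with Snap91, Vamp1 with Rims3 and Unc13c with Sv2b. Syt1 with Syn2 gave 0.675, 0.872 and 0.645, Nsf with Amph 0.595, 0.804 and 0.645, Syngr1 with Snap91 0.59, 0.538 and 0.641, Vamp1 with Rims3 0.688, 0.772 and 0.732, and Vamp1 with Cplx1 0.484, 0.577 and 0.637. Unc13c with Sv2b gave −0.533, −0.536 and −0.316, and Unc13c with Doc2b 0.465, −0.231 and 0.647. With arrays of low detection left out, Stx1a with Syn1 gave partial correlations of 0.159, −0.419 and −0.155, Stx1a with Syp −0.0121, 0.0234 and 0.078, Stx1a with Unc13c −0.421, −0.586 and −0.454, and Syn1 with Syp 0.368, 0.292 and 0.651. Syt1 with Syn2 gave 0.45, 0.613 and 0.764, Nsf with Amph 0.572, 0.405 and 0.633, Syngr1 with Snap91 0.585, 0.323 and 0.571, Vamp1 with Rims3 0.755, 0.833 and 0.759, and Vamp1 with Cplx1 0.548, 0.677 and 0.701. Unc13c with Sv2b gave −0.608, −0.255 and −0.421, and Unc13c with Doc2b 0.548, 0.632 and 0.54, so the sign of the last turned in HS4 with those arrays. The partial correlations carry no test, and the part of cortical tissue in the dissections was not tested.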

How the data were processed

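Striatal RNA was measured on Illumina arrays, each from a single animal, and lines were taken from the sample labels. The deposited values are on a log2 scale, and the authors quantile normalized them with lumi, selection by selection. Neither the version of lumi nor the transformation it applied (log2 or variance stabilizing) is given in the sources used here, and variance stabilization would compress dim probes. The number of arrays limits the precision. Of 25697 probes, 23978 had 1 gene symbol and 1719 had none.

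High minus Low was fitted within each selection by the lmFit and eBayes functions of limma 3.58.1 under R 4.3.3, with Benjamini-Hochberg adjustment over all expressed probes at a false discovery rate of 0.1. Differences between selections came from a single fit of the 6 groups after joint quantile normalization. Correlations used the brightest expressed probe per gene, line means subtracted, with 100000 resamples, in Python 3.11.15 (numpy 2.4.6, pandas 2.3.3, scipy 1.17.1, matplotlib 3.10.9). The limma step was tested on simulated data.

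All members were named, with lowest, median and highest levels in every selection for called members and for Snap25, Stx1a, Vamp2 and Syt1. The members and lists were chosen with earlier results of these data known. Alternatives were the probe filters, outlying arrays (mean correlation over 2.5 SD below the mean) left out, an intensity trend, joint normalization, a stricter rate of 0.05, array weights, marker covariates, sex from Eif2s3y in HS4, Spearman correlation, the mean over probes and partial correlation. Leaving out arrays with under 50% of probes above background, the spiny neuron relations and the partial correlations of single pairs were added after seeing the data.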

Additional observations from a re-analysis of the deposited data

How the results depend on the processing

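The fall of Unc13c in F2 kept its direction under every alternative and lost its call only at a false discovery rate of 0.05, where 0 member probes were called in F2. Array weights called 2 in F2 and 1 in HS4 (2 and 1 of 50, where 4.03% and 0.749% of all probes were called), and marker means as covariates called 2 in F2 and 1 each in HS-CC and HS4 (0.967%, 3.25% and 0.125% of all probes). The added calls were Stx12 in F2 with array weights (0.10), Stx1a in F2 (0.13) and Syp in HS-CC (0.19) with covariates, and Synpr in HS4 with each (0.09 and 0.11). Without the arrays of low detection 1 probe was called in HS4 (Synpr, 0.716% of all probes) and 1 difference between selections (Unc13c, F2 minus HS-CC, 3.45%). Synpr in HS4 passed the filter on low values only through the High line, so its calls are no support, and without that filter its adjusted p was 0.2. The cause of these changes was not tested.

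Of the 50 member probes, 3, 20 and 9 changed sign in F2, HS4 and HS-CC with array weights, 3, 6 and 3 with covariates, 4, 10 and 7 without outlying arrays and 6, 13 and 9 without arrays of low detection. Among Unc13c, Stx1a, Stx12, Vamp2, Syt1, Synpr and Syp, the uncalled differences that did so were those of Unc13c (−0.0021), Stx1a (0.06), Stx12 (0.05) and Syp (0.06) in HS4, Vamp2 (0.01) and Synpr (0.02) in HS-CC with array weights. With covariates they were Vamp2 in HS-CC (0.01) and Syp in F2 (−0.03), and without outlying arrays Syp in F2 (−0.0011) and HS4 (0.04). Without the arrays of low detection they were Stx1a (0.05), Stx12 (0.07) and Syp (0.05) in HS4 and Syt1 in F2 (0.01).

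The median correlation among the members was 0.0815 in F2 and 0.108 in HS-CC without outlying arrays, 0.12 in HS-CC with the mean over probes, and 0.0384, 0.0257 and 0.0671 (F2, HS4, HS-CC) given the cortical markers. Over these settings 3 relations to those markers and 1 relation of the tested gene pairs were reversed. The correlation of Vamp3 with those markers in HS4 was −0.21 without outlying arrays and −0.354 without arrays of low detection, that of Syt11 in HS4 was 0.233, and that of Nsf with Napa in HS4 was 0.0184 under the last setting. With all arrays Nsf with Napa stood at −0.386 in HS4. No paired analysis was possible because the animal numbers in the labels pair no animals across lines.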

Other observations

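Relations to spiny neuron markers, computed after the cortical relations had been seen, ran the other way for Stx1a, Syn1, Syp, Doc2b and Unc13c. Of 33 genes, 22, 27 and 17 passed in F2, HS4 and HS-CC at an adjusted permutation p under 0.1 over 99 relations, and 21, 25 and 16 without the arrays of low detection. At the weakest r that passed, 66.7%, 81.8% and 51.5% of the genes stood against 29.6%, 66.7% and 36.9% of all expressed probes, and without those arrays 63.6%, 75.8% and 48.5% against 33.7%, 40.3% and 34.4%. The signs in HS4 turned on those arrays, with 16 positive and 11 negative genes (median r over the 33 genes 0.129) with all arrays and 5 positive and 20 negative (median −0.423) without them. In F2 there were 5 positive and 17 negative genes with all arrays and 5 and 16 without those of low detection, and in HS-CC 6 and 11, and 5 and 11. Positive in every selection were Cplx2, Doc2b and Unc13c, and negative were Rims3, Stx1a, Syn1, Syp and Vamp1. For these lists, too, the share of all expressed probes was not computed. Doc2b correlated with the spiny neuron mean at 0.782, 0.664 and 0.723 in F2, HS4 and HS-CC, and Stx1a at −0.696, −0.747 and −0.393. Without the arrays of low detection Syn1 in HS-CC stood at −0.193 with an adjusted permutation p of 0.118 and did not pass.

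Synpr in HS-CC had an empty gap between 9.28 and 9.49. Of the 96 animals, 50 lay below it (25 High and 25 Low) and 46 above it (23 High and 23 Low). The probe exceeded background on 23 High and 24 Low arrays. With at least 9 animals on each side of it, the widest gap of Synpr was 0.02 in F2 and 0.03 in HS4. Counting gaps at the ends too, it was 0.05 in F2 and 0.24 in HS4, each with 1 animal beyond it.

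Probes of the same gene did not always move together. In HS4 the brighter probes of Napa correlated at −0.551 and those of Syngr1 at 0.942, and in F2 the brighter probes of Vamp1 correlated at 0.825 and those of Snap91 at 0.087. Without outlying arrays the Snap91 value was 0.504, and without the arrays of low detection 0.0315. Those of Napa, Syngr1 and Vamp1 were −0.733, 0.917 and 0.789 without outlying arrays and −0.308, 0.939 and 0.868 without the arrays of low detection. The probes of Syn1 correlated at 0.274, 0.517 and 0.333 in F2, HS4 and HS-CC, and those of Doc2b at 0.175, 0.675 and 0.524. Without the arrays of low detection these were 0.309, 0.556 and 0.322 for Syn1 and 0.295, 0.737 and 0.404 for Doc2b.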
